A study of Homo sapiens with 9 samples.

Results

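The genes described here are the aminoacyl-tRNA synthetases and the scaffold proteins that hold several of them together. They were picked out by gene symbol, and comprise 39 of the 58735 genes in the deposited table: 20 cytosolic enzymes, 16 mitochondrial enzymes and 3 scaffold genes. Of the 20 cytosolic enzymes, 8 are subunits of the multisynthetase complex and 12 are free of it. RNA was sequenced from MIA PaCa-2 cells, an established human pancreatic cancer cell line, after 24 h in the vehicle (0.1% DMSO), in compound 1 at 1 μM or in SCH772984 at 1 μM. Each of these groups had 3 libraries. SCH772984 inhibits ERK1/2, the last kinases of the MAPK pathway, and compound 1 inhibits the kinases TBK1 and IKKε. All groups were cultures of 1 cell line with no genetic change between them. Nothing in the labels states whether the 3 libraries of a group came from separate cultures, so p-values measure only the spread between these samples, which may be technical.

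Each aminoacyl-tRNA synthetase joins an amino acid to the tRNAs that carry it, and the charged tRNA then delivers the amino acid to the ribosome. Cells keep a cytosolic set, which serves the translation of nuclear genes, and a separate nuclear-encoded set that is imported into mitochondria to translate the mitochondrial genome. KARS and GARS each encode both forms from a single gene, and EPRS joins the enzymes for glutamate and proline in a single protein. Many cytosolic synthetase genes are known targets of ATF4, the transcription factor of the amino acid response.

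The libraries held 9464432 to 13887859 counts, and the lowest count of any of the 39 genes in any library was 13 (SARS2) and the highest 8246 (IARS2). All 39 genes passed the filter on low counts in every comparison. The SCH772984 treatment could be read in the cells: all 11 tested genes of a list of known ERK outputs were lower, among them SPRY4, an inhibitor that ERK signalling induces, at 236, 232 and 225 CPM (counts scaled by TMM to a common library size) with DMSO and 1.58, 1.68 and 2.75 with SCH772984. None of these 11 was called with compound 1 at an adjusted p under 0.05. At an unadjusted p under 0.05, 2 were lower and 1 was higher, against 7.69% and 7.35% of all genes tested. Without compound 1 replicate 1, which is described below, FOSL1 and SPRY2 were called lower (log2 fold change -0.27 ± 0.07 and -0.21 ± 0.07, adjusted p = 0.0106 and 0.0284). Of all genes then tested, 6.1% were lower and 3.46% higher. Of the epithelial markers, KRT8, KRT18 and KRT19 were expressed, whereas EPCAM was at 0 in all 9 libraries and CDH1 and KRT7 stayed below 1 CPM. The acinar, islet and leukocyte markers PRSS1, CPA1, CELA3A, INS, GCG and PTPRC were at 0 in all 9 libraries, and the endothelial marker PECAM1 had 1 count in all. COL1A2, a collagen gene listed as a fibroblast marker, rose from a mean of 481 to 1037 CPM with SCH772984, while KRT8 and KRT18 fell from 2487 to 771 and from 879 to 167 CPM. KRT19 was not called, at means of 252 CPM with DMSO and 272 CPM with SCH772984 (adjusted p = 0.149 by edgeR). Of the mesenchymal markers, VIM fell from 2471 to 2112 CPM and ZEB1 from 35.9 to 23.8 CPM, and CDH2 stayed below 1 CPM. Of the other fibroblast markers, COL1A1 rose from 0.246 to 2.66 CPM and LUM stayed below 1 CPM. The part of these changes in the results below was not tested. Compound 1 replicate 1 stood apart from its group: a chi-square of its counts against those of replicates 2 and 3, divided by its degrees of freedom, came to 11.1 and 8.29, and to 2.78 between replicates 2 and 3. Calls with compound 1 are therefore given with and without this library.

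In DMSO the median level of the cytosolic enzymes was above that of the mitochondrial ones. Per kilobase of exon, the median level was 53.7 CPM over the 20 cytosolic enzymes, 17.8 over the 3 scaffold genes and 8.59 over the 16 mitochondrial enzymes. The highest cytosolic levels per kilobase belonged to FARSA at 90.9 ± 4.6 (SD, n = 3), KARS at 88.5 ± 2.3, NARS at 85.4 ± 4.5, GARS at 82.5 ± 0.95 and AARS at 81.0 ± 6.2, and each differed from the next by less than the larger of their SDs. CARS was the lowest of the 20 at 7.72 ± 0.049 CPM per kilobase, below the mitochondrial median and below CARS2 at 9.21 ± 0.21. The length used was the union of all annotated exons, 10037 bases for CARS, 10460 for CARS2 and 2435 for FARSA. Ranks between genes therefore depend on how many exons are annotated for each. IARS2, the mitochondrial isoleucyl-tRNA synthetase, was the highest of all 39 genes at 112 ± 2.6 CPM per kilobase, and YARS2 at 48.8 ± 3 was the next highest mitochondrial enzyme. SARS2 was the lowest of all 39 at 0.711 ± 0.27, with only 13 to 42 counts per library.

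With SCH772984 most of these genes were lower, the cytosolic enzymes more than the mitochondrial ones. Of the 39 genes, 28 were lower, 3 were higher and 8 were not called at an adjusted p under 0.05 (edgeR quasi-likelihood test with Benjamini-Hochberg adjustment over the 13834 genes tested). Among all genes tested 35.5% were lower and 37.2% were higher. The median log2 fold change was -0.55 over the 39 genes and 0.03 over all genes tested. In 29 of the 39 genes all 3 SCH772984 libraries lay below all 3 DMSO libraries, and in 3 all lay above, where 36.3% and 38% of all tested genes were separated in this way. In bulk RNA of this kind, fewer cells of a type and less RNA per cell cannot be told apart. Of the 20 cytosolic enzymes 18 were lower and 1 was higher, with a median of -0.71. Of the 16 mitochondrial enzymes 7 were lower, 2 were higher and 7 were not called, with a median of -0.15. Scaling the libraries by their totals alone moved the median of all genes from 0.03 to 0.20 and that of the mitochondrial enzymes to 0.03, which left the latter 0.18 below all genes under either scaling. Where a gene needed 10 or more counts in each library to be tested, they were 0.09 below all genes tested, and with no filter, where the median of all genes was 0.36, they were 0.54 below.

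**Figure D1:**
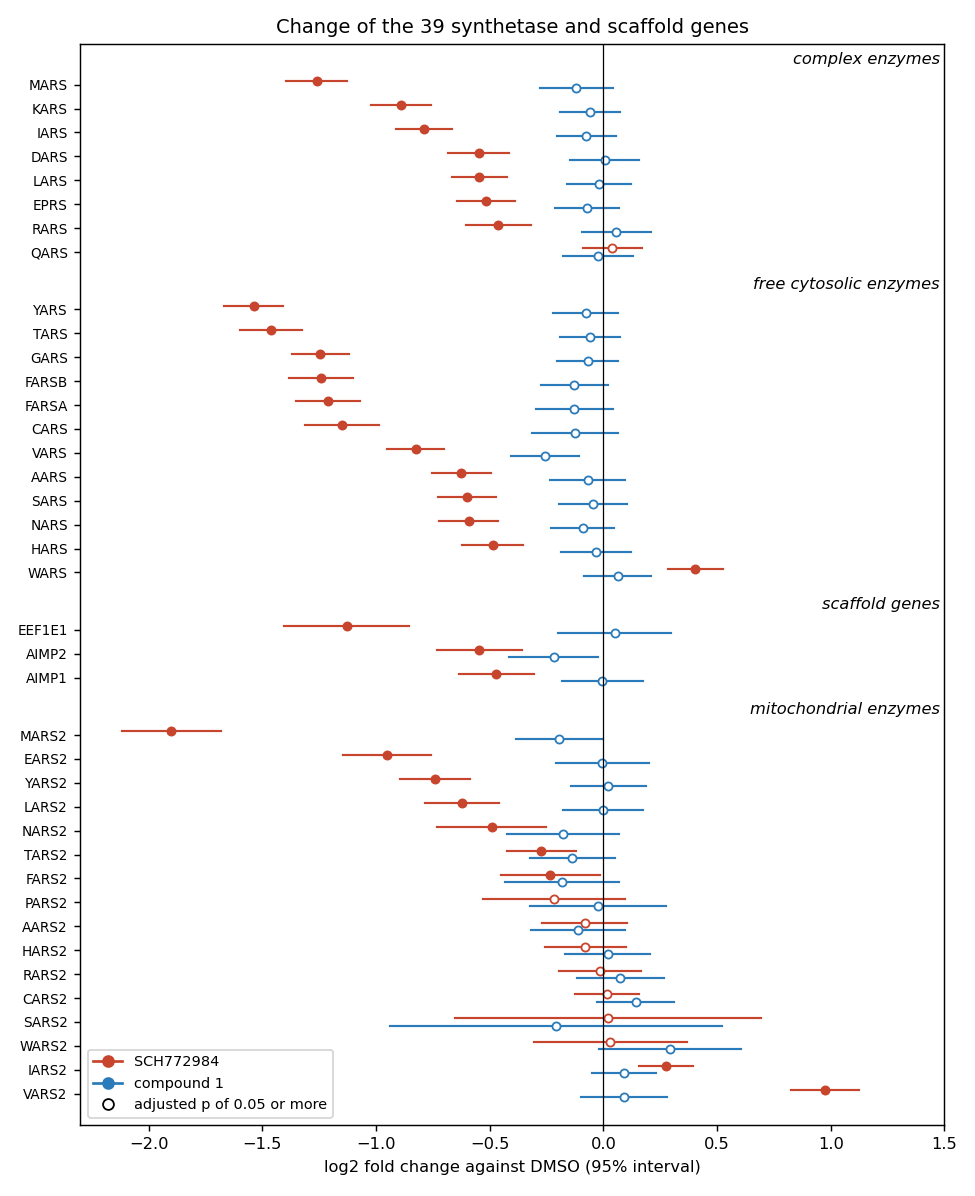
Log2 fold change against DMSO (x axis) of each of the 39 genes (y axis), grouped by role, with 95% intervals from 3 libraries per group. Red points stand for SCH772984 and blue points for compound 1, and open points have an adjusted p of 0.05 or more. The red points of 18 of the 20 cytosolic enzymes lie to the left of 0, WARS lies to the right, and every blue point is open.

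Within the multisynthetase complex, 7 of the 8 enzymes fell with SCH772984, and the median log2 fold change of the 8 was -0.55. MARS, which charges methionine to both initiator and elongator tRNA (ENSG00000166986, chr12:57475445-57517569, plus strand), was at 259, 253 and 253 CPM with DMSO and at 111, 113 and 96.9 CPM with SCH772984. Gene coordinates here and below are those of GRCh38. All 3 treated libraries of MARS lay below all DMSO libraries, and the level fell 2.40-fold (log2 fold change -1.26 ± 0.07, adjusted p = 2.01e-21). KARS, the lysyl-tRNA synthetase of both compartments (ENSG00000065427, chr16:75627474-75648643, minus strand), was at 361, 369 and 350.1 CPM with DMSO and 215, 195 and 176 CPM with SCH772984. The KARS groups did not overlap either, and its log2 fold change was -0.89 ± 0.07 (adjusted p = 2.38e-16). IARS, the cytosolic isoleucyl-tRNA synthetase (ENSG00000196305, chr9:92210207-92293756, minus strand), went from 419.5, 397 and 402 to 245, 239 and 224 CPM, again without overlap (log2 fold change -0.79 ± 0.06, adjusted p = 9.72e-16). The enzymes for aspartate (DARS), leucine (LARS), glutamate and proline (EPRS) and arginine (RARS) fell less, by 0.55, 0.55, 0.52 and 0.46 on the log2 scale. QARS, the glutaminyl-tRNA synthetase, was the only subunit that was not called. Its libraries read 160.1, 154 and 159 CPM with DMSO and 157, 158 and 173 CPM with SCH772984, so the groups overlapped, and the 95% interval of its log2 fold change was -0.09 to 0.17.

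Of the 12 free cytosolic enzymes 11 were lower and 1 was higher, and their median log2 fold change of -0.99 was further below 0 than that of the complex enzymes. YARS, which charges tyrosine (ENSG00000134684, chr1:32775237-32818153, minus strand), fell the most of all 20 cytosolic enzymes. It was at 283, 279 and 272 CPM with DMSO and at 93.4, 101 and 94.3 CPM with SCH772984, a 2.90-fold fall (log2 fold change -1.54 ± 0.06, adjusted p = 4.41e-25). TARS, the threonyl-tRNA synthetase (ENSG00000113407, chr5:33440696-33469539, plus strand), went from 321, 305 and 299 to 119.7, 116 and 102 CPM (log2 fold change -1.46 ± 0.07, adjusted p = 1.07e-23). GARS, the glycyl-tRNA synthetase of both compartments (ENSG00000106105, chr7:30594681-30634033, plus strand), went from 347, 341 and 340.0 to 147, 147 and 142 CPM, and its 3 treated libraries lay close together (log2 fold change -1.24 ± 0.06, adjusted p = 1.78e-22). In none of these 3 genes did the groups overlap. FARSA and FARSB, the 2 subunits of the cytosolic phenylalanyl-tRNA synthetase, fell by nearly the same amount, with log2 fold changes of -1.21 ± 0.07 and -1.24 ± 0.07. CARS (cysteine) fell by 1.15 on the log2 scale, and VARS (valine), AARS (alanine), SARS (serine), NARS (asparagine) and HARS (histidine) fell by 0.49 to 0.83.

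WARS, the tryptophanyl-tRNA synthetase (ENSG00000140105, chr14:100333788-100376805, minus strand), was the only one of the 20 cytosolic enzymes that rose. QARS was also called higher (log2 fold change 0.21) when libraries were scaled by their totals alone, where the median of all genes tested was 0.20. The WARS libraries read 373, 341 and 339 CPM with DMSO and 486, 453 and 462 CPM with SCH772984, so that every treated library lay above every control (log2 fold change 0.40 ± 0.06, adjusted p = 9.06e-08). WARS is known both as an ATF4 target and as a gene that interferon-γ induces. With SCH772984 its level per kilobase, 73.4 ± 2.7 CPM, was the highest of the 20 cytosolic enzymes, whereas in DMSO, at 55.2 ± 2.9, it was near their median. A share of 10.6% of its exon bases overlaps exons of WDR25 and of AL157871.4 on the opposite strand, and WDR25 itself had 117 to 134 counts with DMSO and 341 to 532 with SCH772984. The part of these reads in the WARS value was not tested.

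**Figure D2:**
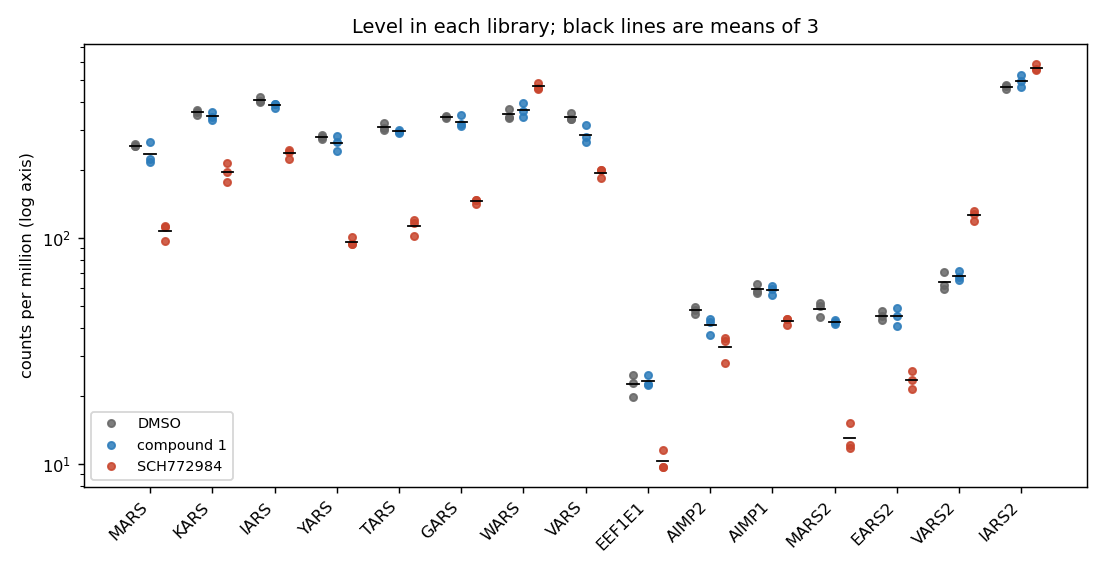
TMM-scaled CPM (y axis, log scale) of 15 of the genes whose values are given library by library (x axis). QARS and FARS2, whose libraries overlapped between SCH772984 and DMSO, are not plotted. Each point is 1 library and each black line the mean of 3, and the SCH772984 points lie below the DMSO points in 12 of the plotted genes and above them in WARS, VARS2 and IARS2.

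The cytosolic enzymes were also counted by structural class and by whether they are known ATF4 targets. The enzymes belong to 2 unrelated folds, called class I and class II, and EPRS, which holds one of each, was counted in neither. Of the 9 class I enzymes 7 were lower, WARS was higher and QARS was not called, with a median of -0.79, and all 10 class II enzymes were lower, with a median of -0.76. The 12 cytosolic enzymes listed as ATF4 targets had 11 lower and 1 higher and a median of -0.71. The 8 others had 7 lower and 1 not called and a median of -0.69. The list of ATF4 targets was written from general knowledge, not from binding data, and the difference between the classes or between these lists was not tested.

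Because most cytosolic enzymes fell together, their promoters were read for 3 short motifs on both strands: TGATGNAA, the core of the C/EBP-ATF element that ATF4 binds, CCGGAAG, the core that ETS factors bind, and CACGTG, the E-box that MYC and MAX bind. The promoter sequences are those of RefSeq on GRCh38.p14, from 250 bases before to 50 bases after the start, and 33 of the 39 genes had one. LARS, DARS, VARS, YARS, AARS2 and VARS2 had none. TGATGNAA was present in 7 of 16 cytosolic, 1 of 14 mitochondrial and 0 of 3 scaffold genes, and in 3.604% of all protein-coding genes with a promoter. Matches of different motifs did not overlap. In 6 of the 7 cytosolic genes TGATGNAA read TGATGCAA on one of the strands. The windows are shown because they share the motif while the bases around it differ. Each is written 5′ to 3′ in the direction of its gene with 8 bases on either side, and the capitals mark the motif, which reads TTGCATCA or TTTCATCA where it lies on the strand opposite to the gene:
TARS, chr5:33440959-33440982, plus strand: cctttcgaTTGCATCAgctggtcc
MARS, chr12:57488056-57488079, plus strand: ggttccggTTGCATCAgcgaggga
CARS, chr11:3057410-3057433, minus strand: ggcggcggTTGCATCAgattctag
IARS, chr9:92293695-92293718, minus strand: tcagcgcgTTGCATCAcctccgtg
AARS, chr16:70289678-70289701, minus strand: tctcgcagTTGCATCAgccaagtt
NARS, chr18:57621807-57621830, minus strand: acgctctcTGATGCAAcgccggaa
GARS, chr7:30594837-30594860, plus strand: cgcggcgaTTTCATCAtgctccga
YARS2, chr12:32756079-32756102, minus strand: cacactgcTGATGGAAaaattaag

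The match lay within 22 bases of the start site in TARS, MARS, CARS, IARS and NARS, ended 26 bases before it in GARS and 180 bases before it in AARS, and ended 190 bases before it in YARS2. TARS, CARS and GARS each had 2 promoter windows, and the match lay in 1 of them. The 7 cytosolic genes with the motif had log2 fold changes of -1.46 to -0.59 with SCH772984 (median -1.15), and the 9 with a promoter but without the motif had -1.24 to 0.40 (median -0.52). Both ranges include genes that fell by more than 1, and the difference was not tested. CCGGAAG was present in 9 of 16 cytosolic, 7 of 14 mitochondrial and 1 of 3 scaffold genes, against 16.526% of protein-coding genes. CACGTG was present in 1 of 16, 3 of 14 and 1 of 3, against 10.901%. HARS and HARS2 are transcribed away from each other, and their promoters share sequence, including the same CCGGAAG matches. The promoters of TARS, which had the largest fall among cytosolic enzymes with a promoter sequence, and of WARS, which rose, are shown from 250 bases before to 20 bases after the start, with capitals for any match to the 3 motifs:
TARS, chr5:33440715-33440984, plus strand: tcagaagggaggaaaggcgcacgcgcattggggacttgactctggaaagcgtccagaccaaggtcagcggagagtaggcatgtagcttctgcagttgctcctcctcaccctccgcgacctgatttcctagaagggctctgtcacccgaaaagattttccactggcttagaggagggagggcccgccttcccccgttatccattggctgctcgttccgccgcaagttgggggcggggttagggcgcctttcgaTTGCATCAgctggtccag
WARS, chr14:100375328-100375597, minus strand: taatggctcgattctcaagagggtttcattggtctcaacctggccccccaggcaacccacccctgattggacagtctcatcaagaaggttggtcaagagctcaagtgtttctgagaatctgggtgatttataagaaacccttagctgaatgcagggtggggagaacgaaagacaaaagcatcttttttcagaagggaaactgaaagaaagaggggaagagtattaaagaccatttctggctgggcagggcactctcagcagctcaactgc

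TARS held a single match in this window, from 3 to 10 bases after the start. The WARS window, the one used by most annotated WARS transcripts, held none of the 3 motifs. Another WARS start and another TARS start each held CCGGAAG. A match is a run of letters and was not read as a bound site, and a window without one says nothing of the factor.

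All 3 scaffold genes fell with SCH772984. EEF1E1 (also AIMP3), which tethers MARS in the complex (ENSG00000124802, chr6:8073360-8102578, minus strand), went from 22.8, 19.7 and 24.8 to 9.71, 11.5 and 9.72 CPM, a 2.19-fold fall (log2 fold change -1.13 ± 0.14, adjusted p = 5.56e-10). AIMP2, the core scaffold around which the complex assembles (ENSG00000106305, chr7:6009245-6023834, plus strand), went from 48.1, 49.5 and 46.2 to 36.0, 27.8 and 34.8 CPM (log2 fold change -0.55 ± 0.09, adjusted p = 1.26e-06). AIMP1, which binds RARS in the complex and also occurs as a secreted cytokine (ENSG00000164022, chr4:106315544-106349226, plus strand), went from 62.7, 56.9 and 57.9 to 43.9, 43.6 and 41.1 CPM (log2 fold change -0.47 ± 0.08, adjusted p = 1.88e-06). In each of the 3 the treated libraries lay below all controls. The exons of AIMP2 overlap those of EIF2AK1 on the opposite strand over 28.9% of their length. EIF2AK1 had 2191 to 2569 counts with DMSO and 1906 to 2269 with SCH772984, against 423 to 470 and 330 to 520 for AIMP2, and its part in the AIMP2 value was not tested. The exons of EEF1E1 share 18.7% with the read-through gene EEF1E1-BLOC1S5, which had 0 counts in all 9 libraries. The part of this overlap in the EEF1E1 value was not tested.

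The mitochondrial enzymes moved in both directions. MARS2, the mitochondrial methionyl-tRNA synthetase (ENSG00000247626, chr2:197705369-197708387, plus strand), had the largest fall of all 39 genes. It was at 50.04, 51.2 and 44.6 CPM with DMSO and at 11.7, 12.1 and 15.1 CPM with SCH772984, a 3.73-fold fall with no overlap (log2 fold change -1.90 ± 0.11, adjusted p = 3.29e-20). EARS2, which charges glutamate (ENSG00000103356, chr16:23522014-23557731, minus strand), went from 43.3, 47.5 and 44.9 to 25.6, 21.4 and 23.4 CPM (log2 fold change -0.95 ± 0.10, adjusted p = 3.96e-12). YARS2, LARS2 and NARS2 fell by 0.74, 0.62 and 0.49 on the log2 scale. TARS2 fell by 0.27 (adjusted p = 0.00126), a call that was lost when libraries were scaled by their totals alone (log2 fold change -0.10, adjusted p = 0.227). The median of all genes tested was 0.03 in the first fit and 0.20 with that scaling. FARS2 passed only narrowly. Its libraries overlapped at 27.8, 28.9 and 23.9 CPM with DMSO and 22.1, 22.7 and 24.0 CPM with SCH772984, its adjusted p was 0.0499, and the call was lost in 9 of 13 other settings, among them without either SCH772984 replicate 1 or 2 (adjusted p = 0.0893 and 0.0885) and without either DMSO replicate 1 or 2 (adjusted p = 0.108 and 0.165).

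VARS2 and IARS2 rose, and CARS2 was called higher as well (log2 fold change 0.19, adjusted p = 0.0125) only when libraries were scaled by their totals alone. That scaling put the median of all genes tested at 0.20. VARS2, the mitochondrial valyl-tRNA synthetase (ENSG00000137411, chr6:30908242-30926459, plus strand), was at 59.6, 61.5 and 70.4 CPM with DMSO and 119, 128 and 131 CPM with SCH772984, a 1.96-fold rise (log2 fold change 0.97 ± 0.07, adjusted p = 8.49e-16). Its exons share 21.993% of their length with GTF2H4 on the same strand, and GTF2H4 had 1 to 6 counts in the DMSO and compound 1 libraries and 17 to 21 with SCH772984, and its part in the VARS2 value was not tested. IARS2, the most abundant mitochondrial enzyme (ENSG00000067704, chr1:220094102-220148041, plus strand), went from 469, 473 and 453 to 556, 586 and 552 CPM (log2 fold change 0.27 ± 0.06, adjusted p = 5.38e-05). In both genes every treated library lay above every control. The 7 mitochondrial enzymes that were not called (AARS2, CARS2, HARS2, PARS2, RARS2, SARS2 and WARS2) had log2 fold changes of -0.22 to 0.03. Their precision differed: the 95% interval was -0.19 to 0.16 for RARS2 (arginine) but -0.65 to 0.69 for SARS2 (serine), which at 13 to 42 counts per library did not allow a small change to be detected.

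Summed over their genes, the 2 compartments diverged under SCH772984. The 20 cytosolic enzymes together held 5493, 5444 and 5287 CPM with DMSO, 5332, 5048 and 5080.4 with compound 1 and 3533, 3386 and 3229 with SCH772984. The 16 mitochondrial enzymes held 1119 to 1164 CPM with DMSO, 1161 to 1194 with compound 1 and 1152 to 1169 with SCH772984, and the SCH772984 range overlapped both others. IARS2 made up much of the second sum, and without it the mitochondrial enzymes held 681 ± 13 CPM with DMSO (SD, n = 3), 678 ± 18 with compound 1 and 594 ± 9.9 with SCH772984. The ratio of the 2 sums does not depend on how libraries are scaled. The mitochondrial counts were 21.0, 21.4 and 21.2% of the cytosolic counts with DMSO, 21.8, 23.6 and 22.9% with compound 1 and 32.6, 34.5 and 35.8% with SCH772984. Without IARS2 the ratio was 12.6 ± 0.10% with DMSO, 13.2 ± 0.049% with compound 1 and 17.6 ± 0.96% with SCH772984. In both forms every SCH772984 library lay above the other 6. As a share of all counts of a library, the cytosolic enzymes held 0.511 to 0.522% with DMSO and 0.347 to 0.378% with SCH772984, and the mitochondrial enzymes 0.108 to 0.110% and 0.123 to 0.126%, so without TMM scaling the second sum was higher with SCH772984. Without IARS2 the mitochondrial share was 0.0644 to 0.0655% with DMSO and 0.0626 to 0.0648% with SCH772984, and these ranges overlapped.

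**Figure D3:**
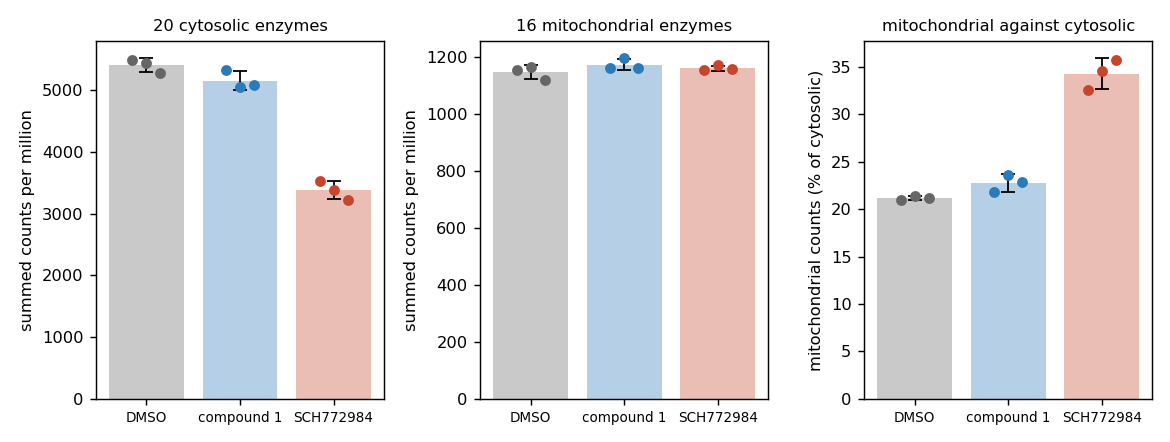
Summed CPM of the 20 cytosolic enzymes (left, y axis) and of the 16 mitochondrial enzymes (middle), and mitochondrial counts as a percentage of cytosolic counts (right), by treatment (x axis). Bars are means of 3 libraries with SD, and points are libraries. The cytosolic sum is lower with SCH772984, the mitochondrial sum with SCH772984, 1152 to 1169, overlaps the ranges of both other groups, and the ratio rises to between 32.6 and 35.8%.

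Pairing each mitochondrial enzyme with the cytosolic enzyme for the same amino acid gave 17 pairs, since FARS2 pairs with both FARSA and FARSB and EPRS with both EARS2 and PARS2. With SCH772984 the mean ratio of mitochondrial to cytosolic counts was higher in 13 pairs and lower in 4, with a median log2 change of 0.54. In 10 of the pairs every SCH772984 library lay above every DMSO library, and in 3 every one lay below. The widest change was for valine, where the 2 genes moved in opposite directions: VARS2 counts were 17.7, 17.2 and 21.1% of VARS counts with DMSO, 22.8, 25.5 and 23.2% with compound 1 and 59.8, 69.5 and 65.6% with SCH772984. For cysteine, CARS2 counts were 128, 125 and 121% of CARS counts with DMSO and 276, 267 and 294% with SCH772984, although CARS2 itself was not called. For isoleucine, IARS2 went from 112, 119 and 113% of IARS to 227, 245 and 247%. Methionine was an exception, since both enzymes fell and the mitochondrial one fell further: MARS2 was 19.3, 20.2 and 17.6% of MARS with DMSO and 10.5, 10.7 and 15.6% with SCH772984. The shares of EARS2 to EPRS and WARS2 to WARS were lower in every SCH772984 library as well, and that of LARS2 to LARS was lower at the mean with overlapping libraries. Pairs that share EPRS or FARS2 are not independent, and no test was made over the pairs.

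**Figure D4:**
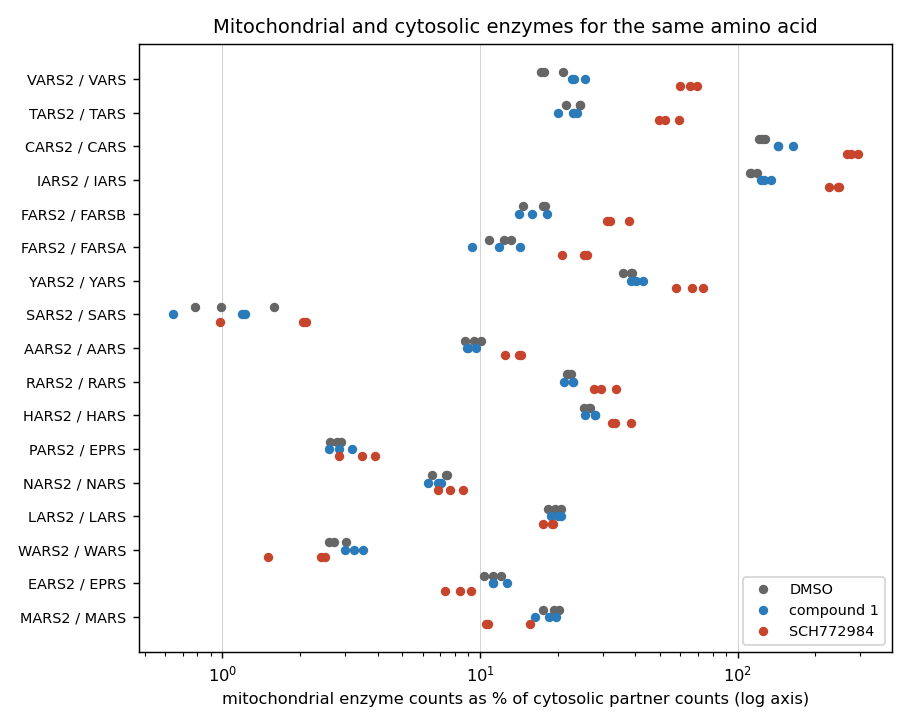
Counts of each mitochondrial enzyme as a percentage of the counts of its cytosolic partner (x axis, log scale) for the 17 pairs (y axis), with 1 point per library. The SCH772984 points lie to the right of all DMSO points in 10 pairs, most widely for VARS2 and VARS, and to their left for MARS2, EARS2 and WARS2.

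With compound 1 none of the 39 genes was called at an adjusted p under 0.05 in edgeR or in DESeq2 with treatment as the only term, all 3 libraries of each group and the filter on low counts, where 0.374% of the 12849 genes tested were lower and 0.49% higher in edgeR. With no filter VARS was called lower (adjusted p = 0.0239). At an unadjusted p under 0.05, 3 of the 39 were lower and 0 higher, against 7.69% and 7.35% of all genes tested. The median log2 fold change was -0.07 over the 20 cytosolic enzymes, of which 17 had a value below 0, and 0.00 over the 16 mitochondrial enzymes and over all genes. VARS had the smallest p of the 39. Its libraries read 336, 358 and 334 CPM with DMSO and 314, 264 and 279 CPM with compound 1, without overlap (log2 fold change -0.26 ± 0.07, adjusted p = 0.0956, unadjusted p = 0.00224 by edgeR). AIMP2 was at 48.1, 49.5 and 46.2 CPM with DMSO and 43.7, 37.2 and 42.4 with compound 1 (log2 fold change -0.22 ± 0.09, adjusted p = 0.271, unadjusted p = 0.0304 by edgeR). MARS2 was at 50.04, 51.2 and 44.6 CPM with DMSO and 43.3, 42.5 and 41.5 with compound 1 (log2 fold change -0.19 ± 0.09, adjusted p = 0.326, unadjusted p = 0.0472 by edgeR). In all 3, which were picked for their p, the compound 1 libraries lay below the DMSO libraries. Over the 39 genes 5 were separated in this way and 2 (RARS2 and WARS2) lay above, against 10.6% and 10.3% of all genes tested.

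The compound 1 result rested in part on replicate 1, the library that stood apart. Without it, 4 of the 39 genes were lower and 0 higher at an adjusted p under 0.05, all of them cytosolic enzymes, while 6.1% of the 13084 genes then tested were lower and 3.46% higher. The log2 fold change without it was -0.33 ± 0.05 for VARS (adjusted p = 5.03e-05), for MARS -0.21 ± 0.05 (adjusted p = 0.00794), for FARSA -0.20 ± 0.06 (adjusted p = 0.0272) and for CARS -0.22 ± 0.07 (adjusted p = 0.0499). The median of the 20 cytosolic enzymes was then -0.09 and that of the mitochondrial enzymes 0.00. AIMP2 and MARS2 remained uncalled (adjusted p = 0.0541 and 0.143).

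The direct comparison of the inhibitors asked whether SCH772984 lowered these genes beyond compound 1. With SCH772984 26 of the 39 genes were lower than with compound 1, 3 were higher and 10 were not called (edgeR, adjusted p under 0.05), against 32.6% lower and 33.7% higher of 13863 genes tested. The cytosolic enzymes were again 18 lower and 1 higher, with a median of -0.55, and the mitochondrial ones 5 lower, 2 higher and 9 not called, with a median of -0.12. That mitochondrial median was 0.01 with libraries scaled by their totals alone and -0.05 where 10 or more counts were needed in each library, and relative to all genes tested it was -0.15 as first given, -0.15 and -0.08 in these settings in turn, and -0.33 with no filter. Without compound 1 replicate 1 26 of the 39 genes were lower and 2 higher, against 31.9% and 33.5% of 14446 genes tested. VARS was 314, 264 and 279 CPM with compound 1 and 199, 184 and 199 with SCH772984, so the fall was larger with SCH772984 (log2 fold change -0.56 ± 0.08, adjusted p = 6.99e-06). MARS2 (log2 fold change -1.70 ± 0.12, adjusted p = 1.66e-10) and VARS2 (log2 fold change 0.89 ± 0.09, adjusted p = 2.59e-08) also differed between the inhibitors. For TARS2 and FARS2 the difference between the inhibitors was not called, with 95% intervals of -0.33 to 0.07 and -0.30 to 0.21. IARS2, NARS2 and AIMP2 passed (adjusted p = 0.0396, 0.0402 and 0.0201), but these calls were lost in 6, 7 and 3 of 13 other settings.

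Other genes of tRNA supply and of the amino acid response were counted from lists written by hand. Among 42 genes of tRNA transcription and processing, 34 were lower with SCH772984 and 2 higher, with a median log2 fold change of -0.64, against 35.5% lower and 37.2% higher of all genes tested. The RNA polymerase III subunits POLR3K (log2 fold change -1.52 ± 0.15, adjusted p = 8.53e-13) and POLR3G (log2 fold change -1.45 ± 0.09, adjusted p = 1.11e-18) fell the most. KIAA0391, the nuclease of mitochondrial RNase P (log2 fold change 0.74 ± 0.17, adjusted p = 0.000141), and POLR3GL, the paralog of POLR3G (log2 fold change 0.65 ± 0.17, adjusted p = 0.000967), rose. Among 19 tested partners of charging and delivery, 12 were lower and 3 higher, with XPOT, the exporter of tRNA from the nucleus, at 308, 304 and 294 CPM with DMSO and 132, 143 and 113 with SCH772984, and TRNT1, which adds the CCA end, lower by 1.92-fold. SEPSECS, the last enzyme of selenocysteinyl-tRNA synthesis, and TARSL2, a second cytosolic threonyl-tRNA synthetase gene, rose by 0.99 and 0.68 on the log2 scale.

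Of 24 tested genes of the ATF4 amino acid response, 15 were lower and 6 higher with SCH772984, with a median of -0.85, again against 35.5% and 37.2% of all genes tested. ATF4 itself was at 222, 206 and 212 CPM with DMSO and 85.7, 86.5 and 91.0 with SCH772984 (log2 fold change -1.29 ± 0.07, adjusted p = 7.24e-22). PSAT1 of serine synthesis and CHAC1, which degrades glutathione, fell the most (-2.04 and -2.18 on the log2 scale), and the factor ATF3 and the transsulfuration enzyme CTH rose the most among genes at an average of at least 5 CPM (1.501 and 1.19). Of 17 tested amino acid transporters 10 were lower and 6 higher, with a median of -0.66, so the share that was higher was near the 37.2% of all genes tested. SLC7A5, which imports large neutral amino acids, was at 1437, 1238 and 1203 CPM with DMSO and 336, 336 and 361 with SCH772984, and SLC1A5, which imports glutamine, fell by 1.76 on the log2 scale. The glycine transporter SLC6A9 and the cystine transporter SLC7A11 rose by 0.81 and 0.65. With compound 1 the only gene of these 4 lists called at an adjusted p under 0.05 was SLC7A1, which imports arginine and lysine, at 414, 405 and 388 CPM with DMSO and 304, 335 and 327 with compound 1 (log2 fold change -0.32 ± 0.07, adjusted p = 0.0376). Without compound 1 replicate 1, SLC7A1 remained lower (log2 fold change -0.27 ± 0.05, adjusted p = 0.000341), and 8 of the 17 transporters and 6 of 22 tested genes of the ATF4 response were lower and 0 higher, against 6.1% and 3.46% of all genes then tested. Among them were SLC7A5 (log2 fold change -0.49 ± 0.06, adjusted p = 2.45e-07) and CHAC1 (log2 fold change -0.91 ± 0.21, adjusted p = 0.00283). Of 41 tested genes of tRNA transcription and processing 1 was then lower and 2 higher, and of the 19 charging partners 0 were called.

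Strand-specific counting is not given in the sources used here, and the exons of 23 of the 39 genes overlap those of another gene. Among the 16 genes with no such overlap, 13 were lower with SCH772984, 1 was higher (IARS2) and 2 were not called. All 9 cytosolic enzymes of these 16 were lower, with a median log2 fold change of -0.62, and the 7 mitochondrial ones had 4 lower and a median of -0.23. SARS2 shares 46.2% of its exon bases with AC011455.2 on the same strand, which had 0 to 2 counts per library, and 10.8% with MRPS12 on the opposite strand, which had 478 to 817 against 13 to 42 for SARS2, so the SARS2 values are uncertain for that reason as well.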

How the data were processed

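RNA was sequenced from 3 libraries per group by Novogene. The authors' deposited file is a table of whole read counts for 58735 genes, with no normalization or filter. Per the submitters' processing notes, reads were aligned with HISAT2 2.0.5 to hg38 and counted with featureCounts 1.5.0-p3, and the strand setting is not given in the sources used here. Identifiers and coordinates of the 39 genes matched GENCODE release 29.

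Groups were taken from the deposited labels. Each pair of groups was fitted on its own over all genes with edgeR 4.0.16 (quasi-likelihood, robust) in R 4.3.3, with TMM factors and filterByExpr (minimum count 10, minimum total 15). Standard errors cover the spread between libraries and counting error. A gene was called at a Benjamini-Hochberg adjusted p under 0.05 over all genes tested. On simulated counts for SCH772984 against DMSO (12911 genes), 95.8% of 190 tested genes changed by 1 on the log2 scale were called. The simulation gave all genes a common dispersion and changed only 200, as many up as down. In the data 35.5% of genes were called lower and 37.2% higher, so it does not give the share found there. Alternatives were scaling by totals alone, RLE factors, a single fit of all 9 libraries, a replicate block, no filter, a minimum of 10 counts in each library, DESeq2 1.42.0, an unadjusted p and leaving out each library.

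The genes and lists were chosen with earlier results of these data known. Values are given library by library for the 3 called genes that changed most with SCH772984 in each role, those called against their group's majority and, since none was called with compound 1, the 3 with the smallest p. QARS and FARS2 were added after their values were seen. From the other lists, the 2 called genes with the largest rise and fall at an average of at least 5 CPM are named, and ATF4, SPRY4 and SLC7A1 beside them.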

Additional observations from a re-analysis of the deposited data

How the results depend on the processing

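Of 39 genes compared between SCH772984 and DMSO under 13 other settings, FARS2 lost its call in 9, TARS2 lost it in 1 and QARS and CARS2 each gained a call in 1, and no called gene changed sign. Scaling by totals alone gave 5 higher genes in place of 3, a cytosolic median of -0.53 and a mitochondrial median of 0.026, and against compound 1 medians of -0.42 and 0.014, both mitochondrial values having turned from below to above 0. Relative to all genes tested, the mitochondrial medians were -0.18 against DMSO and -0.15 against compound 1 under either scaling. Requiring at least 10 counts in every library gave medians of -0.63 and -0.069 against DMSO and a mitochondrial median of -0.049 against compound 1, where no filter gave -0.15. The cause was not tested. Without 1 library, the cytosolic median against DMSO ran from -0.76 to -0.68, and the mitochondrial median against compound 1 from -0.17 to -0.090. With compound 1, the lower genes numbered 0 to 4 without 1 library, 4 being without compound 1 replicate 1, and 3 at an unadjusted p.

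Same-numbered libraries deviated together in no consistent way (r = -0.10 to 0.16), so the numbers do not pair them. With the number as a replicate block, 27 genes were lower and 3 higher with SCH772984, and 1, VARS, was lower with compound 1. VARS was also the 1 gene called with no filter. The adjusted p of VARS ran from 5.03e-05 to 0.451 over 13 settings. SARS2, at 13 counts in its lowest library, is the gene most limited by depth.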
